A study of Mus musculus with 3 samples.

Results

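The 10 genes described here are best known from astrocytes and were followed in RNA bound to tagged ribosomes of the mouse dentate gyrus: Slc1a2, Slc1a3, Glul, Gfap, Aqp4, Gja1, Aldoc, Apoe, Clu and Sparcl1. They were taken by symbol, and all 10 of them had a row among the 32531 genes counted. The libraries came from adult Penk-EGFP/Rpl10a mice (line NIDA186, strain C57BL/6J), in which regulatory DNA of the proenkephalin gene Penk drives a green fluorescent tag on the ribosomal protein Rpl10a. The tissue was dissected, tagged polysomes were immunopurified without any treatment of the animals, and 3 libraries of 1 group were sequenced, named replicates 1 to 3. Neither unbound RNA nor whole tissue was analysed here, and no enrichment or depletion of these genes could be computed. RNA carried over in the purification and RNA on tagged ribosomes of astrocytes or neurons cannot be told apart, nor can fewer cells of a type and less RNA per cell. Since the labels name no animals, p-values measure the spread between these 3 samples, which may be technical.

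Astrocytes clear glutamate from the synapse, convert it to glutamine for return to neurons, take up potassium and water, and are joined to each other by gap junctions. They also secrete lipid carriers and matrix proteins that act on synapses. Several of these genes are not exclusive to astrocytes: Slc1a2 mRNA is known from hippocampal neurons too, Gfap from the radial stem cells of the dentate gyrus, Glul from oligodendrocytes, Apoe from microglia and Clu and Sparcl1 from some neurons.

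The libraries held 5348761, 19195559 and 11059982 counts on genes in replicates 1 to 3, and 8795, 14252 and 12019 genes reached at least 10 counts. Replicate 1 thus stood apart by depth and by the number of genes seen. Levels between genes are given as CPM (counts scaled by TMM to a common library total) per kb of exon, and comparisons of 1 gene between libraries as CPM. Neuronal markers were plentiful: Snap25, a protein of the vesicle fusion machinery, averaged 1057 ± 471 CPM per kb (SD, n = 3). The granule cell regulator Prox1 averaged 55.4 ± 23.7 CPM per kb, and Stxbp6, the highest granule cell marker, 77.2 ± 45.5. The list of 9 granule cell markers was uneven, and only 5 of them passed the filter used for the tests below. In replicates 1 to 3, C1ql3 had 0, 1658 and 453 counts and Calb1 had 2, 1350 and 121.

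Together the 10 astrocyte genes took 14326, 45434 and 49604 counts in replicates 1 to 3, which is 0.268, 0.237 and 0.449% of the counts on genes. The exact 95% binomial intervals were 0.264 to 0.272%, 0.235 to 0.239% and 0.445 to 0.453%, and they cover counting error only. The glutamate transporter gene Slc1a2 alone gave 85.1, 61.9 and 65.9% of those counts. Per kb of exon, which removes the advantage of its long transcripts, it still gave 62.4, 29.5 and 34.4% of the sum over the 10 genes. Without Slc1a2 the other members summed to 132, 224 and 407 CPM per kb in replicates 1 to 3, so replicate 3 carried the most and replicate 1 the least.

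**Figure D1:**
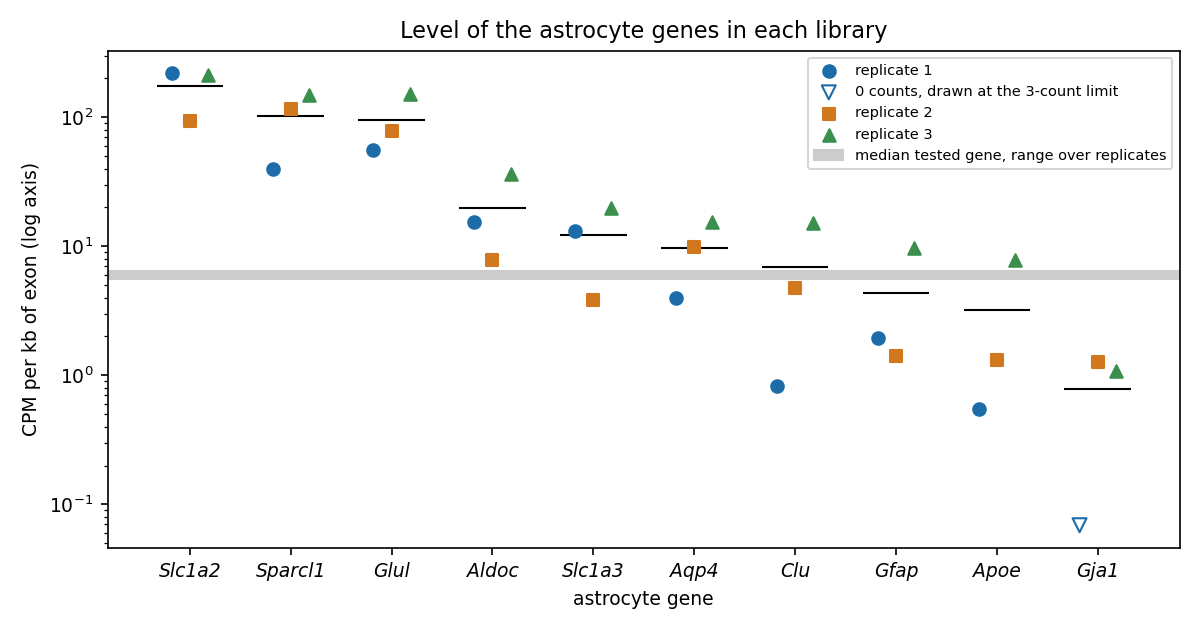
CPM per kb of exon (log axis) of the 10 astrocyte genes in each of the 3 libraries, with the mean as a black line and the range of the median tested gene in grey; the open triangle is a count of 0 drawn at the limit of 3 counts. Slc1a2, Sparcl1, Glul and Aldoc stand above the grey band in every library, and Gja1, with a mean of 0.779 CPM per kb, is lowest.

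Each gene was compared with the median tested gene of its library with limma (TREAT, two-sided, log2 threshold of 1, Benjamini-Hochberg adjustment over 7924 genes). Of the 9 members that could be tested, 3 lay above that gene and 0 lay below it at an adjusted p under 0.05. At an unadjusted p under 0.05 the counts were 3 above and 0 below. Over all tested genes 10.7% lay above it and 4.32% below, and 7 of 10 pan-neuronal markers passed above. The median level of the 9 tested members was 0.73 on the log2 scale, where the median of all tested genes is 0 by construction. Over all 10 members the median was 0.38, -0.050 and 1.50 in replicates 1 to 3. The 3 genes above, Slc1a2, Sparcl1 and Glul, were the same with each replicate left out and without correction for length. Without replicate 1 the filter was rerun and 10425 genes were tested, so the median gene was a different reference. Against it the levels were 4.98 for Slc1a2, 4.87 for Sparcl1, 4.60 for Glul, 1.92 for Aldoc and 1.46 for Aqp4. They were 0.96 for Slc1a3, 0.93 for Clu, -0.27 for Gfap and -0.45 for Apoe. The median over all 10 members was 1.21, against 0.61 with all 3 libraries. Each of these values was higher than with all 3 libraries, but the part due to the moved reference was not separated. When genes of low count were kept too, which brings the median gene down, 6 of 10 members lay above it, beside 2946 of 15080 genes.

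Of the genes of glutamate handling, Slc1a2 and Glul lay above the median gene and Slc1a3 did not pass the test. Slc1a2 (chromosome 2, 102658659 to 102790784, plus strand, protein-coding) encodes the main glutamate transporter of astrocytes. It had 12190, 28133 and 32679 counts in replicates 1 to 3, or 219, 93.5 and 213 CPM per kb. Its level was 4.76 above the median gene on the log2 scale (SE 0.49, adjusted p = 7.2e-07, limma), higher in 3 of 3 libraries, and it ranked 66 from the top of the 7924 tested genes. An exon of the antisense gene Gm13872 overlaps it, and reads of the pair cannot be told apart if the counting ignored strand.

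Slc1a3 (chromosome 15, 8634124 to 8710764, minus strand) encodes the other astrocytic glutamate transporter, prominent in cerebellar and radial glia. It had 477, 744 and 1982 counts, or 13.2, 3.81 and 19.9 CPM per kb. The level was 0.73 (SE 0.54, adjusted p = 0.961, limma), which did not pass the test. Slc1a2 was higher than Slc1a3 per kb by 4.05, 4.61 and 3.42 on the log2 scale in replicates 1 to 3, a mean of 4.03 (SD 0.60), in 3 of 3 libraries. The size depended on the length used: with the longest transcript the mean was 3.26.

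Glul (chromosome 1, 153899944 to 153909723, plus strand) encodes glutamine synthetase, which turns glutamate into glutamine. It had 790, 5939 and 5902 counts, or 56.1, 78.0 and 152 CPM per kb, and lay 3.85 above the median gene (SE 0.44, adjusted p = 8.0e-06, limma). The exons of Glul overlap those of Mir8114 on the same strand and of Teddm2 on the other.

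Of the Slc1 transporter family, Slc1a2 made up 91.8, 73.1 and 82.4% of the summed CPM per kb. The neuronal transporter gene Slc1a1 was the only other member past 10% in any library: it had 212, 5490 and 1532 counts and made up 2.54, 22.7 and 6.15%. Slc1a3 made up 5.53, 2.97 and 7.69%. Slc1a3 exceeded Slc1a1 in replicates 1 and 3 by 1.12 and 0.32 on the log2 scale per kb and lay -2.93 from it in replicate 2, so their order did not hold across libraries. The Purkinje cell transporter gene Slc1a6 had 2, 2 and 5 counts, and the retinal Slc1a7 had 0 counts in each library.

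The start regions of these 3 members are shown because they handle the same transmitter yet stood at different levels. RefSeq windows on GRCm38.p6, 250 bases before to 50 after an annotated start, were matched for 7 of the 10 members, some with several starts. Capitals mark TATAAA, the core element of classical promoters, and GGGCGG, the motif bound by Sp factors, searched on both strands.
Slc1a2 (chr2:102706188-102706487, plus strand): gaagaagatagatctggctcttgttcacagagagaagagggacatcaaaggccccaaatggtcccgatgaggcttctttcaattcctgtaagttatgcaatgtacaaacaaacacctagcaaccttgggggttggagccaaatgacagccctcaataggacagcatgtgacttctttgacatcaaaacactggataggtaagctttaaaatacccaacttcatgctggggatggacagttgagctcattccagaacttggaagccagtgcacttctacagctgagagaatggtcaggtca
Slc1a3 (chr15:8710758-8711057, minus strand): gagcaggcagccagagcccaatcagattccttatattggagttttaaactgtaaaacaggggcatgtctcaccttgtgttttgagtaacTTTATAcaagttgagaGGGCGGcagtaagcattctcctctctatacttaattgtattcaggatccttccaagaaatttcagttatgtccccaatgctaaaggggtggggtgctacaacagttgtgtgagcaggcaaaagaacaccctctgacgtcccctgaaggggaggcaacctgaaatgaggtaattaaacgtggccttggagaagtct
Glul (chr1:153899679-153899978, plus strand): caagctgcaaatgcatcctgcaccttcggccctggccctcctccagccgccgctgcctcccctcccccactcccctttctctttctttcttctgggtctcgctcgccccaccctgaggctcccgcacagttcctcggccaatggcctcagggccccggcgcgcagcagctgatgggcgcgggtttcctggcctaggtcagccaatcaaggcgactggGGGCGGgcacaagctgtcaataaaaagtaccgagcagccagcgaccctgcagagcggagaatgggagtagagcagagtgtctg
The window of Slc1a2 holds neither set of letters, and its start lies inside the gene as GENCODE draws it. Of 32851 windows of the same length, 13.6% hold TATAAA and 35.7% hold GGGCGG on either strand, so neither match sets these members apart.

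Filament, water channel and gap junction genes were lower than Slc1a2 per kb in each library. Gfap (chromosome 11, 102887336 to 102900912, minus strand), the intermediate filament by which astrocytes are usually stained, had 35, 136 and 474 counts, or 1.96, 1.41 and 9.62 CPM per kb. Replicate 3 stood above the median gene and the other two below, and the level of -0.997 (SE 0.87, adjusted p = 0.860, limma) did not pass the test. Among filament genes of the family, the neuronal Nefl, Nefm and Ina were above the median gene, at levels of 5.68, 4.59 and 3.13 (adjusted p = 4.1e-09, 1.6e-07 and 5.2e-04, limma). Gfap lay -6.68 from Nefl on the log2 scale per kb (SD 1.11), lower in 3 of 3 libraries. Against Vim, the filament of immature glia and vessels, Gfap lay at 0.25, -2.15 and 0.031 in replicates 1 to 3, with no constant order.

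Aqp4 (chromosome 18, 15389496 to 15410982, minus strand), the water channel of astrocyte endfeet, had 105, 1405 and 1122 counts, or 3.97, 9.84 and 15.4 CPM per kb. Its level was 0.49 (SE 0.59, adjusted p = 0.993, limma). It made up 96.9, 97.6 and 95.9% of the summed CPM per kb of 4 aquaporin genes, and Aqp1, the channel of choroid plexus, had 0, 2 and 0 counts.

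Gja1 (chromosome 10, 56377330 to 56402513, plus strand), the main connexin of astrocyte gap junctions, had 0, 296 and 129 counts. It was the member that did not pass the filter. At the rate of replicates 2 and 3 together, 52.1 counts would stand in replicate 1. A count of 0 there allowed up to 0.707 CPM, so Gja1 was at least 18.3-fold higher in replicate 2 and at least 15.6-fold higher in replicate 3, by the limit of 3 counts per library. Gjb6, the other astrocytic connexin, had 1, 237 and 152 counts, near the floor in the same library. The largest share of connexin CPM per kb fell to Gjc3, a connexin of oligodendrocytes, with 76.1, 36.2 and 63.4%, against 0, 9.34 and 2.57% for Gja1. Gja1 has 10.3 kb of annotated exon but a longest transcript of 3889 bases, so its level per kb is understated if that transcript predominates.

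Aldoc (chromosome 11, 78322968 to 78327781, plus strand), the brain form of the glycolytic enzyme aldolase, had 214, 586 and 1386 counts, or 15.5, 7.84 and 36.3 CPM per kb. It lay above the median gene in 3 of 3 libraries, but its level of 1.44 (SE 0.60, adjusted p = 0.557, limma) did not pass the test. Aldoa, the widely expressed form, was steadier at 109 ± 5.02 CPM per kb (SD, n = 3) and passed (level 4.17, adjusted p = 9.9e-07, limma). Aldoc minus Aldoa was -2.80, -3.73 and -1.65 on the log2 scale per kb, lower in 3 of 3 libraries, and Aldoc made up 12.5, 6.98 and 24.1% of aldolase CPM per kb.

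Among the genes of secreted proteins, Sparcl1 lay above the median gene and Clu and Apoe did not pass the test. Sparcl1 (chromosome 5, 104079111 to 104113733, minus strand), which encodes the synapse-promoting matrix protein hevin, had 498, 7754 and 5128 counts, or 40.0, 115 and 149 CPM per kb. It lay 3.87 above the median gene (SE 0.45, adjusted p = 1.1e-05, limma), in 3 of 3 libraries. Its relative Sparc had 108, 3016 and 879 counts, and Sparcl1 exceeded it by 2.57, 1.73 and 2.91 on the log2 scale per kb. The mean of these differences was 2.40, and 1.77 with the longest transcript as length. Spock2, a brain proteoglycan of the same family, exceeded Sparcl1 in replicate 1 only, at 135, 40.2 and 73.7 CPM per kb.

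Clu (chromosome 14, 65968483 to 65981547, plus strand), the secreted chaperone clusterin, had 12, 377 and 606 counts, or 0.823, 4.79 and 15.1 CPM per kb. The level of -0.60 (SE 0.89, adjusted p = 0.968, limma) turned to 0.93 without replicate 1 (adjusted p = 0.836). Apoe (chromosome 7, 19696109 to 19699188, minus strand), the main lipid carrier of the brain, had 5, 64 and 196 counts, or 0.551, 1.31 and 7.84 CPM per kb. Its level was -1.67 (SE 0.80, adjusted p = 0.518, limma), and -0.45 without replicate 1 (adjusted p = 0.968). Without correction for length, which lowers the level of a gene with short exons, it was -2.98 and passed on the low side (adjusted p = 0.0467, limma). Lrp1, a receptor for Apoe, had 380, 3144 and 4977 counts and exceeded Apoe per kb in 3 of 3 libraries.

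**Figure D2:**
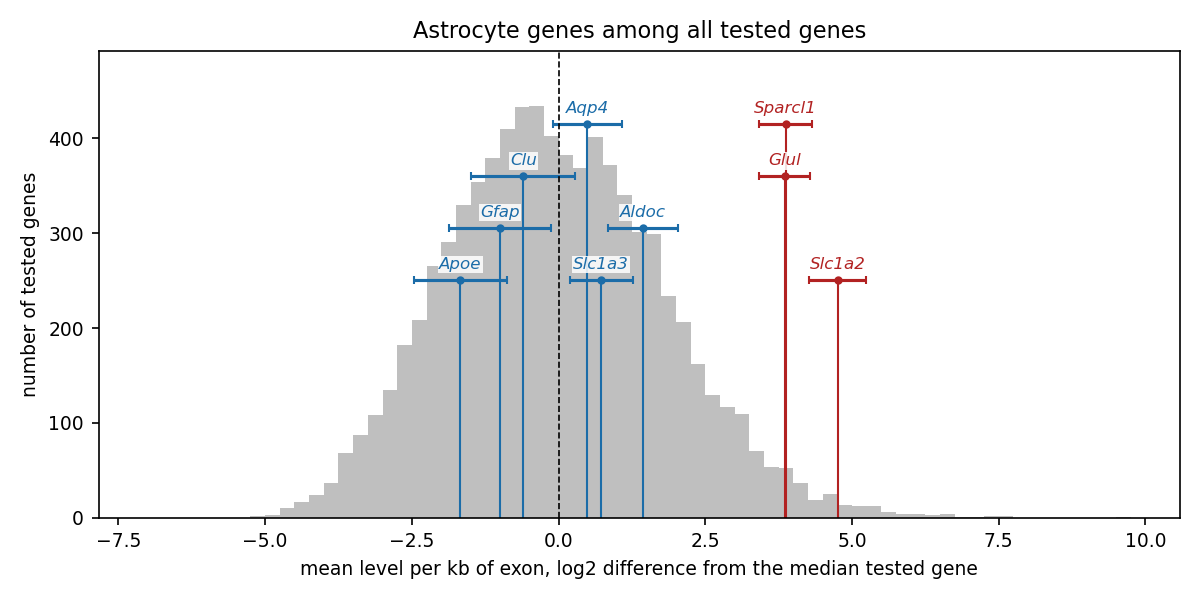
Number of tested genes (vertical axis) by mean level per kb of exon, as the log2 difference from the median tested gene, with the 9 tested astrocyte genes marked by their mean and SE (heights of the marks carry no value); red marks passed the test. Slc1a2, Sparcl1 and Glul stand in the upper tail and the other 6 within the body of the distribution.

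The order of mean level per kb was Slc1a2, Sparcl1, Glul, Aldoc, Slc1a3, Aqp4, Clu, Gfap, Apoe and Gja1. Of the 9 pairs of neighbours in that order, 3 differed by more than the SD of their difference. These were Glul above Aldoc by 2.41 (SD 0.79), Aldoc above Slc1a3 by 0.72 (SD 0.43) and Apoe above Gja1 by 2.78 (SD 2.63). In the last pair Gja1 had a count of 0 in replicate 1, so that difference depended on the prior count. With the longest transcript as length, Aldoc and Slc1a3 both had a level of 1.22, so their order depended on the length used. Neither Slc1a2 and Sparcl1 nor Sparcl1 and Glul differed beyond their spread, and these 3 genes held the first 3 ranks in each library. Gja1 was last and Apoe next to last in each library. With 3 libraries an exact sign-flip test cannot give a p below 0.25, so no test of these differences was made.

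Next, the libraries were compared. All 9 tested members differed between the 3 libraries beyond counting noise (Poisson chi-square, Benjamini-Hochberg adjustment over 8510 genes), but so did 97.4% of all tested genes, and this compares libraries, not conditions. The direction was shared. Of the 10 members, 8 had their highest CPM in replicate 3, beside 31.9% of the 8510 filtered genes and 31.2% of the 17659 genes with any count. The exceptions were Slc1a2, at 2874, 1228 and 2796 CPM, and Gja1, at 0, 12.9 and 11.0 CPM. In replicate 3 all 9 tested members exceeded their CPM in replicate 2, by 1.30-fold for Sparcl1 to 6.83-fold for Gfap, where 49.0% of filtered genes did so. The median of these differences was 1.65 on the log2 scale, against -0.043 for all tested genes. Clu had 2.83, 16.5 and 51.9 CPM and Apoe 1.18, 2.79 and 16.8 CPM in replicates 1 to 3, so that replicate 3 exceeded replicate 1 by 18.3-fold and 14.2-fold, the widest ranges among the 9 tested members.

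The low library was not the same for all members. Replicate 2 was lowest for 4 of them: Slc1a2, Slc1a3, which had 112, 32.5 and 170 CPM, Gfap, which had 8.25, 5.94 and 40.6 CPM, and Aldoc, which had 50.4, 25.6 and 119 CPM. Replicate 1 was lowest for the other 6: Glul, Aqp4, Gja1, Apoe, Clu and Sparcl1. Replicate 1 was lowest for 42.2% of filtered genes and replicate 2 for 26.6%. Clu held 0.0996 times and Sparcl1 0.315 times the counts in replicate 1 that the rate of replicates 2 and 3 would give, whereas Slc1a2 held 1.64 times and Slc1a3 1.43 times as many.

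**Figure D3:**
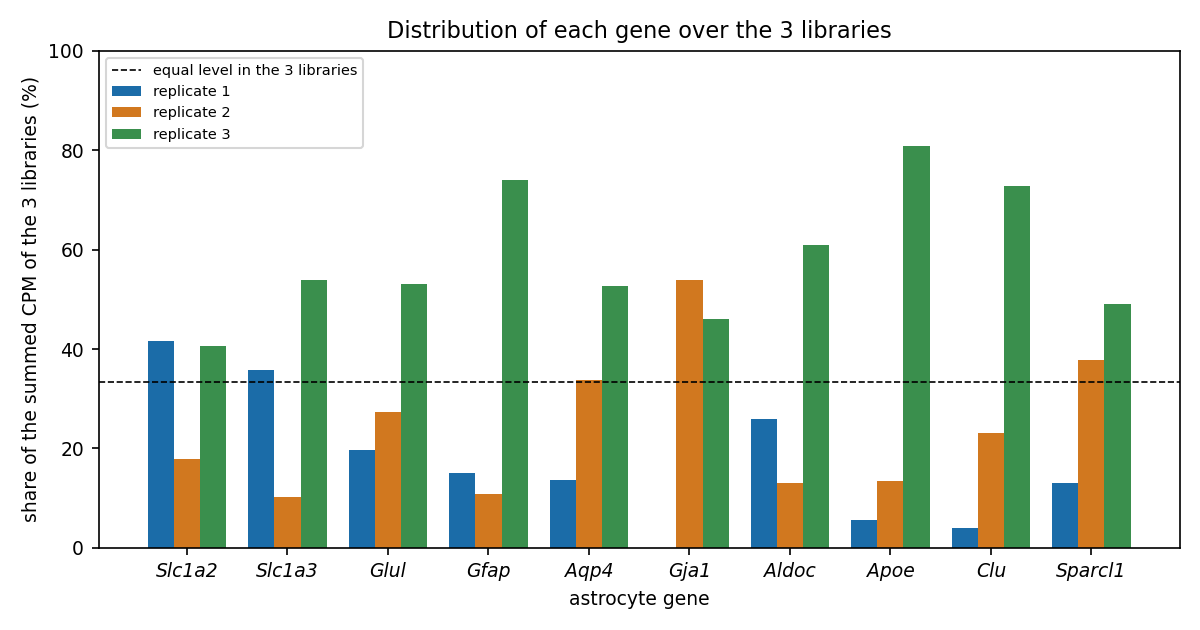
Share (%) of the summed CPM of the 3 libraries that each replicate held, for each astrocyte gene (bars), with equal levels as a dashed line. Replicate 3 holds the largest share for 8 of 10 genes; Slc1a2 is highest in replicate 1 and Gja1 in replicate 2.

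Markers of other cell types moved with the libraries too, and their part in the pattern was not tested. Of 8 oligodendrocyte markers, 7 were highest in replicate 3, beside 31.2% of all genes with a count. Their summed level was 878, 739 and 1210 CPM in replicates 1 to 3, and Opalin was at 0 in replicates 1 and 2. Of 7 microglial markers with any count, 4 were highest there, at summed levels of 3.30, 9.26 and 23.9 CPM, and P2ry12, the highest of them, had 0, 64 and 202 counts. In replicate 1 there were 7 of 8 microglial markers at 0, and C1qa was at 0 in all libraries. For oligodendrocyte precursors it was 3 of 6, at sums of 17.5, 36.5 and 80.4 CPM, with Olig1, the highest, at 0, 193 and 375 counts. Endothelial and mural markers were highest there in 3 of 8 cases and summed to 444, 993 and 445 CPM, with the pericyte gene Rgs5 at 1570, 17115 and 785 counts. Choroid plexus and ependymal markers were highest in replicate 2 in 6 of 6 cases, beside 43.0% of all genes with a count. Their sums were 6.37, 57.5 and 4.62 CPM, with Ttr at 0, 477 and 0 counts and Folr1 at only 0, 1 and 0. Pan-neuronal markers were highest in replicate 3 in 3 of 10 cases and summed to 8849, 14470 and 10220 CPM. Granule cell markers were highest there in 1 of 9 cases and summed to 1760, 1992 and 1032 CPM.

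**Figure D4:**
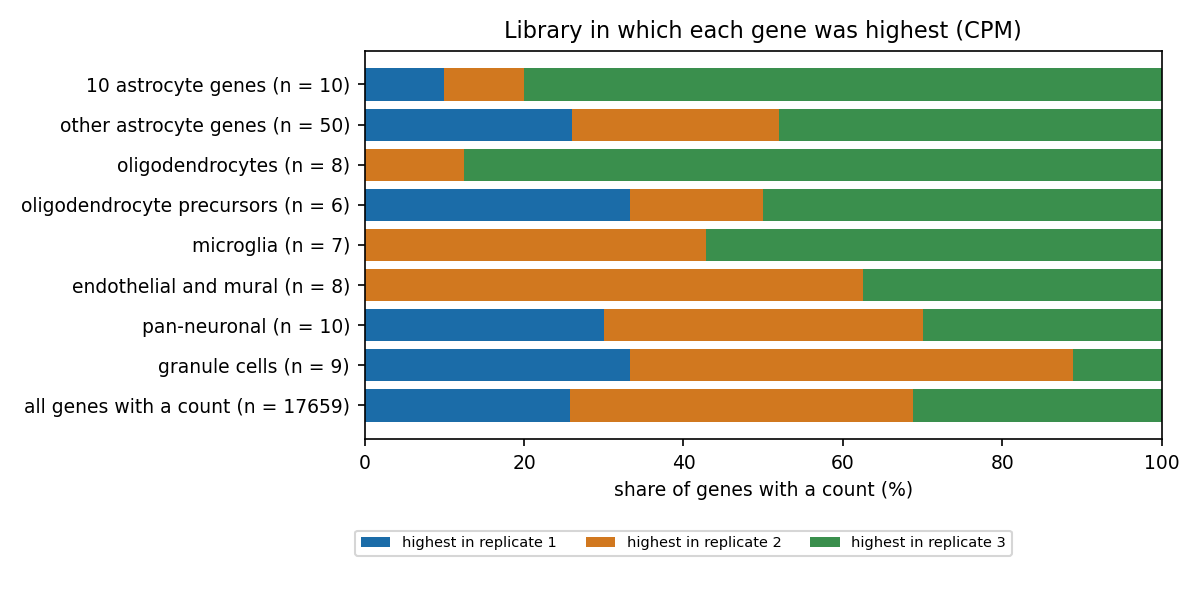
Share (%) of the genes of each list, among those with a count in any library, that had their highest CPM in replicate 1, 2 or 3 (colours); n is the number of genes. The 10 astrocyte genes (80.0%) and the oligodendrocyte markers (87.5%) have the largest shares highest in replicate 3, and all genes with a count have 31.2%.

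A further 50 astrocyte genes were read by role. Of these, 30 could be tested, 7 lay above the median gene and 0 below (8 and 1 at an unadjusted p under 0.05, limma), beside 10.7 and 4.32% of all tested genes. The count above was 11 of 42 without replicate 1, where 1543 of 10425 tested genes lay above. It was 4 of 30 without replicate 3, where 692 of 8478 did. The list had a median level of -1.12 over all 50 genes (SD 0.38, n = 3 libraries) and of 0.030 over the 30 tested. Over all 50 it was -0.55 without replicate 1, where the filter was rerun, and -1.68 without correction for length. With no filter, where the median gene is lower, it was 0.81. Of the 50 genes, 24 (48%) were highest in replicate 3, beside 31.2% of the 17659 genes with any count and 8 of the 10 members.

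Among ion pumps and carriers, Atp1b2, a beta subunit of the sodium-potassium pump, passed at 107 ± 33.3 CPM per kb (SD, n = 3) and the bicarbonate carrier Slc4a4 at 29.6 ± 5.91. Their levels were 4.10 and 2.27 (adjusted p = 1.7e-06 and 0.0222, limma). The glutamate dehydrogenase gene Glud1 (level 2.83, adjusted p = 0.00254) and Ndrg2 (2.49, adjusted p = 0.0226) passed among metabolic genes. The transcription factor genes Nfib and Nfia, which act in glial differentiation and are also made by some hippocampal neurons, passed at 2.82 and 2.65 (adjusted p = 0.00153 and 0.00357, limma). Unlike most members, Nfia and Nfib were highest in replicate 1, with 49.5, 41.1 and 26.8 CPM per kb for Nfia and 58.5, 37.8 and 34.9 for Nfib. So were Atp1b2, at 144, 96.7 and 79.7 CPM per kb, and Ndrg2, at 66.4, 17.7 and 33.3. Slc4a4 and Glud1 were highest in replicate 3.

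None of the 6 tested secreted, 3 tested filament or calcium-binding and 3 tested receptor genes passed, nor did the 2 tested transporters of amino acids. The highest of each were Cst3, a protease inhibitor, at 36.5 ± 19.9 CPM per kb (adjusted p = 0.0747), S100b at 8.34 ± 8.32, the calcium channel gene Itpr2 at 7.68 ± 6.63, and the GABA transporter gene Slc6a11 at 4.26 ± 2.03. The metallothionein gene Mt2 had 4, 932 and 569 counts. Several genes often used to define astrocytes had low counts: Aldh1l1 had 23, 3 and 14 counts, Slc7a10 32, 11 and 9, Hes5 0, 0 and 10, and Agt 0, 13 and 0. These last 4 were picked with their values in view.

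**Figure D5:**
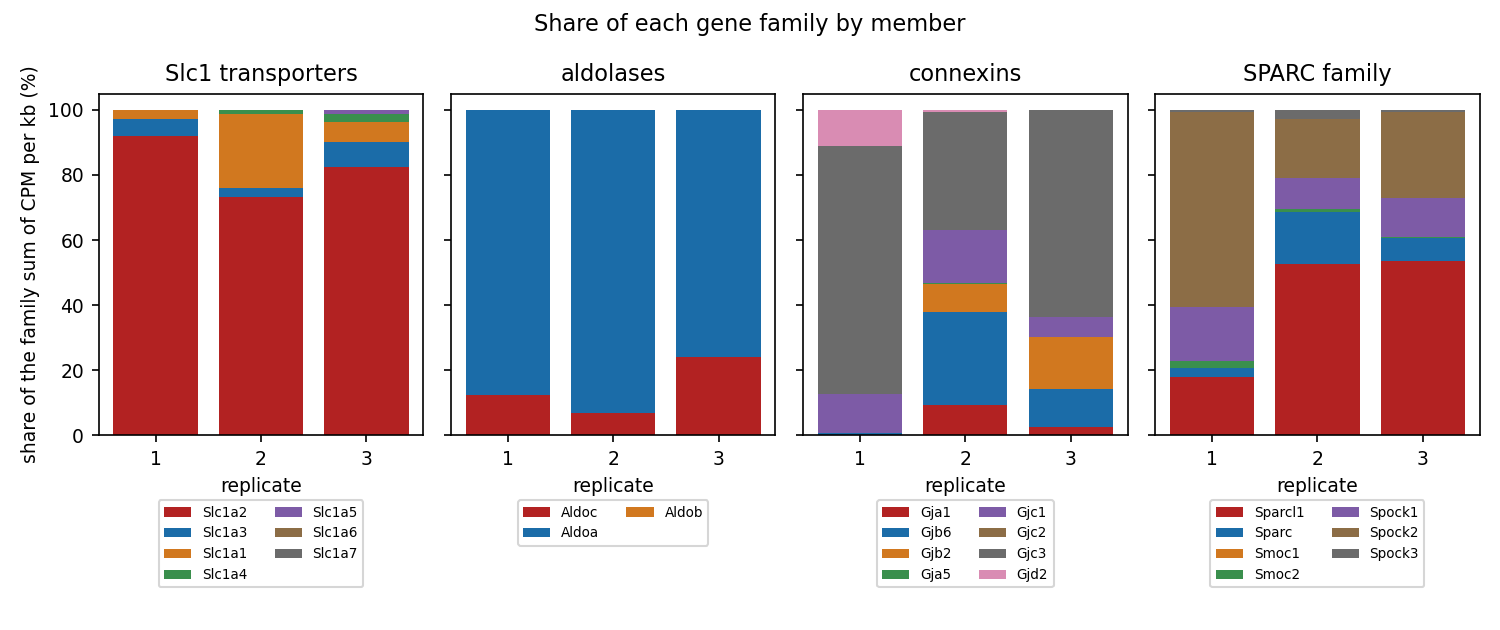
Share (%) of the family sum of CPM per kb held by each gene, by replicate, for Slc1 transporters, aldolases, connexins and the SPARC family; red is the astrocyte gene of the list. Slc1a2 holds 73.1 to 91.8% of its family, Aldoc 6.98 to 24.1%, Gja1 0 to 9.34% and Sparcl1 17.8 to 53.4%.

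The genes nearest in profile to the members were found by the Euclidean distance between centred log2 CPM over the 3 libraries, among 6620 genes with a mean of at least 10 CPM outside all lists. The tested members had a median profile of -0.64, -0.46 and 0.99. Magee1, Pex26 and Ets1 were nearest, at distances of 0.0645, 0.0673 and 0.0809, and 250 genes lay within 0.5. With 3 values per gene, the libraries leave such likeness weakly determined.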

How the data were processed

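Ribosome-bound RNA was sequenced in 3 libraries of 1 group. The deposited files hold whole-number read counts per gene symbol, not normalised and not pooled; STAR 2.0.0e and HTSeq on mm10 appear in the submitters' processing notes. The annotation and strand setting are not given in the sources used here. Summary rows were dropped; 16.3, 38.2 and 21.1% of listed reads fell on genes in replicates 1 to 3, and genes with near-identical copies lose reads that align to several places (32.2, 24.8 and 37.5%).

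TMM scaling and filterByExpr (edgeR 4.0.16, R 4.3.3) kept 8510 of 32531 genes. Exon length and position came from GENCODE vM21 (GRCm38), and the counts may rest on another annotation; 93.1% of filtered genes had a length, leaving 7924. Log2 CPM (prior count 2) per kb minus the median tested gene was tested with limma 3.58.1 (trend, TREAT, log2 threshold 1), since edgeR's quasi-likelihood test needs a second group; p-values rest on the spread between these 3 libraries. Scripts were tested on simulated data. Alternatives were no length correction, longest transcript, DESeq2 1.42.0 size factors, library totals, no filter, other prior count and threshold, thinning, and each replicate left out. Figures used matplotlib 3.10.9.

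Members and lists were chosen with earlier results of these data known. Named were all 10 members, the highest gene of each role and marker list, genes above the median gene, and the 3 nearest profiles; pairs for family differences were set after the counts were seen, leaving out pairs near 0 counts. A few listed genes are not reported here.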

Additional observations from a re-analysis of the deposited data

How the results depend on the processing

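Of 286 recomputed values, 242 were classed as the same, 36 as moved, 4 gained a call and 4 levels without a call changed sign. A level was the same if it kept its direction and side of the threshold. A list median or difference between genes was the same if it moved by less than the replicate spread. Counts of genes were the same if they changed within a fixed ratio, without regard to any spread. With untested values included, 14 changed sign: 4 levels, 8 list medians and 2 differences between genes. Members above the median gene numbered 3 with every replicate left out and 6 of 10 with no filter, where all genes gave 2946 of 15080. The members' median was 2.54 with no filter, and 0.30 to 1.21 with a replicate left out. Further astrocyte genes above numbered 12 of 50 with no filter and 4 to 11 with a replicate left out. Leaving a replicate out reran the filter and so changed the median gene. Of all genes, 1543 of 10425, 605 of 7628 and 692 of 8478 lay above it without replicates 1, 2 and 3. Without the filter, which lowers the median gene, the levels of Gfap, Apoe and Clu turned to 0.94, 0.26 and 1.33 (adjusted p = 0.705, 0.936 and 0.540, limma), and Slc1a3, Aqp4 and Aldoc passed at 2.66, 2.42 and 3.38. Clu turned to 0.93 without replicate 1 and lay at -1.41 without replicate 3; the cause was not tested. Neighbours beyond their SD numbered 1 with the longest transcript as length and 3 to 6 with a replicate left out. Members that differed between libraries numbered 9 of 10, 7 of 8 and 7 of 9 without replicates 1, 2 and 3. The share over all genes was computed only with all 3 libraries, where it was 97.4%. With plain library totals 9 of 10 members, Slc1a2 included, were highest in replicate 3, where 32.1% of filtered genes were, a setting added after seeing the data. No paired analysis was possible because there is 1 group. Low counts in replicate 1 limit Gja1, Apoe and Clu most.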
